A study of Rattus norvegicus with 23 samples.

Results

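The tRX rows are the 34 rows of the deposited tRNA table whose names begin with tRX-, out of 273 rows in all. The other 239 rows carry ordinary tRNA names and are called canonical here. In the naming scheme of genomic tRNA catalogues, the prefix tRX marks a predicted tRNA gene kept outside the high-confidence set. The letters NNN in each name stand where a canonical name gives its anticodon, so a tRX row is assigned to an amino acid only. The 34 rows were assigned to 13 amino acids, with 6 rows for glycine, 4 for leucine, 3 each for arginine, lysine and valine, 2 each for alanine, aspartate, glutamate, isoleucine and methionine, and 1 each for glutamine, histidine and serine. The amino acid of the remaining 2 rows was undetermined (Und). Members were taken by name alone, and the rows were also summed by assigned amino acid into 14 sums.

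The libraries were made from small RNA of sperm of the cauda epididymis, the storage segment of the duct behind the testis, in male Long-Evans rats. Rats breathed filtered air (n = 7), ozone at 0.4 ppm (n = 8) or ozone at 0.8 ppm (n = 8). Rats were exposed for 4 h at a time, 3 times in week 1 and 2 times in week 2, and the ozone chambers averaged 0.401 and 0.798 ppm. The design text gives 8 rats per group, whereas 7 air libraries were analysed here. The labels give no age, genotype or batch. Each library came from its own rat. The labels place RNA integrity between 2 and 4 for all samples, with no value per sample. The comparison of the 3 groups bears on whether breathing this oxidant gas is followed by altered noncoding RNA in sperm.

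Transfer RNAs bring amino acids to the ribosome and are cut into shorter fragments under stress and during sperm maturation. Mature sperm make little RNA of their own, and in mice their small RNA is rich in fragments from the leading end of a few tRNAs, glycine and glutamate tRNAs foremost, part of which are gained in the epididymis. Mammalian genomes also hold many tRNA-like copies that lack features of a working tRNA gene. A fragment shorter than the gene can match such a copy and a working tRNA gene equally well, so the name of a row does not by itself say which copy made the RNA. How the authors placed reads with several matches was not stated in the labels or headers read here.

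A single read of the tRNA table was worth 0.460 to 2.42 units of the deposited value (median 0.962). By that step the rows of a library added up to 164342 to 481504 tRNA reads (median 391901), of which 11909 to 39389 lay in tRX rows (median 27631). A read placed in more than 1 row would count in each, so these need not be distinct reads. Of the marker miRNAs of male germ cells, 5 of 6 were present and took 23.6 to 51.3% of the summed miRNA table (median 42.9%). Their median was 43.9% in air, 36.1% at 0.4 ppm and 45.3% at 0.8 ppm. All 5 epididymal epithelium markers were present at 0.680 to 3.21%, with medians of 1.22% in air, 1.57% at 0.4 ppm and 1.12% at 0.8 ppm. Of the muscle and stroma markers 3 of 4 were present at 1.53 to 11.3%, with medians of 1.72, 2.87 and 1.98% in the same order. Leukocyte markers (5 of 5) stayed within 0.0253 to 0.122%, and 2 of 3 erythrocyte markers within 0.00589 to 0.141%, and the medians of both were also highest at 0.4 ppm (0.0890 and 0.0514%). The miRNAs miR-449c-5p, miR-133a-3p and miR-486 of these lists were not found among the rows analysed here. The part of these cells in the tRX values was not tested. In bulk sperm RNA, fewer cells of a type and less RNA per cell cannot be told apart.

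The tRX rows were unequal in level, and 1 glycine row held most of their signal. All tRX rows together took 7.93 ± 1.20% of the summed tRNA table (SD, n = 23). tRX-Gly-NNN-90-1 alone took 5.39 ± 0.902% of the table and 67.8 ± 2.65% of the tRX signal, between 62.6 and 73.7% in every library. Its mean value of 19155 was the 7th highest of the 273 rows. tRX-Glu-NNN-3-1 followed with a mean of 2618, place 34 in the table, and 9.36 ± 1.57% of the tRX signal. tRX-Gly-NNN-135-1 had a mean of 1868, place 39, and 6.64 ± 1.06% of the tRX signal. These were the only 3 tRX rows among the 50 highest rows of the table.

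**Figure D1:**
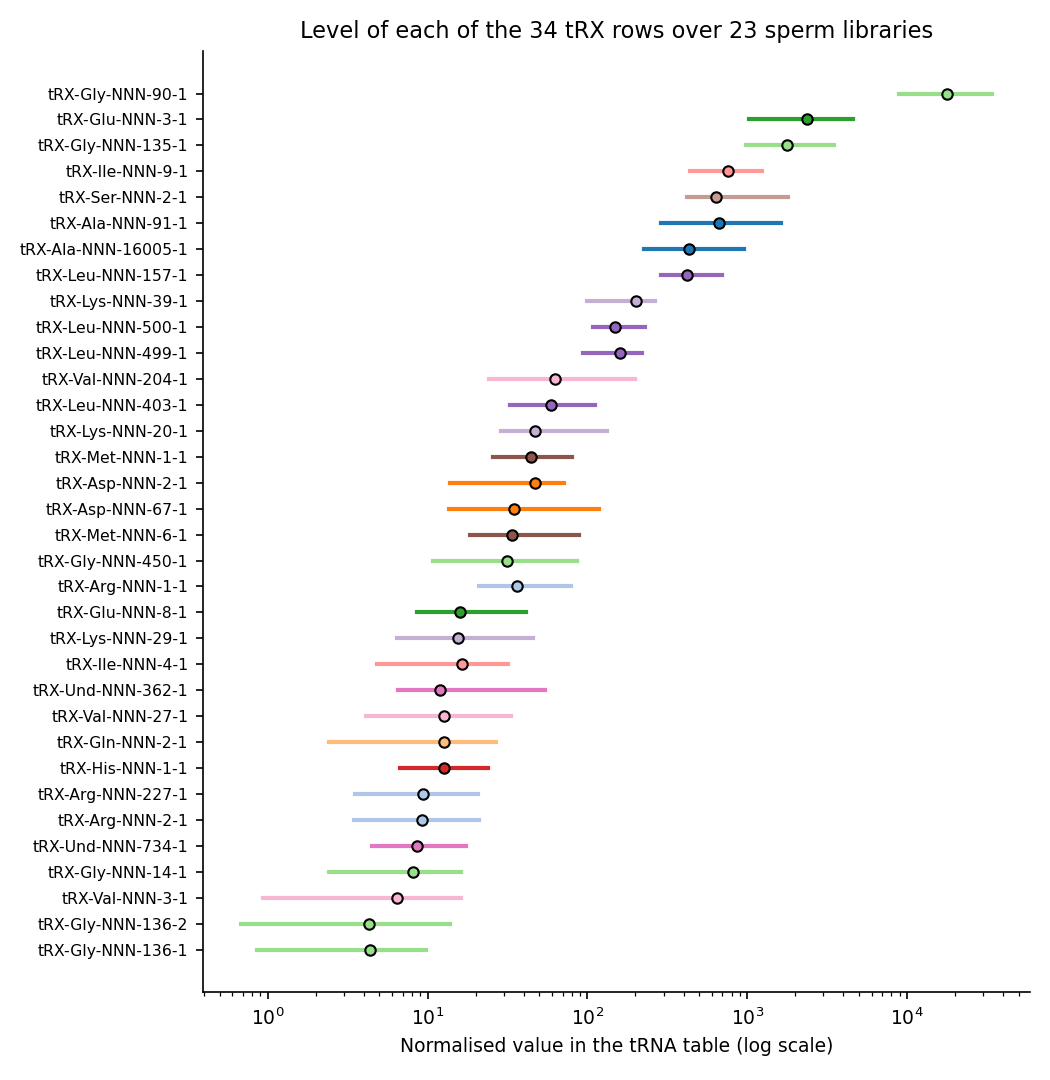
Normalised value of each of the 34 tRX rows in the tRNA table on a log axis, ordered by the mean over the 23 sperm libraries, with colour marking the assigned amino acid. Each point is the median over the libraries and each line runs from the lowest to the highest library, and tRX-Gly-NNN-90-1 lies above all other rows with values of 8897 to 34118.

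Below these 3 rows the level fell steeply. The next 8 rows had means of 159.7 to 791, 23 were under 100, and 14 of those were under 20. The median of the row means was 41.4 for the tRX rows and 96.8 for the canonical rows. By the read step, 6 tRX rows had a median under 10 reads per library, 14 had under 20, and 11 had 100 or more. Row lengths are not given, so these levels are not per length, and an order between rows is an order of reads and not of molecules per gene. No value of the table was 0, and no row repeated another exactly. The spread between rats of 1 group was a median of 0.53 on the log2 scale for tRX rows and 0.49 for canonical rows, and among tRX rows it ran from 0.27 for tRX-Leu-NNN-500-1 to 0.79 for tRX-Gly-NNN-136-2.

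The share of the tRNA table held by tRX rows overlapped between the 3 groups. It was lowest 6.60%, median 6.79% and highest 9.52% in air, 7.35, 8.38 and 9.21% at 0.4 ppm, and 5.83, 7.81 and 10.6% at 0.8 ppm. Group means with SD were 7.41 ± 1.19% for the 7 air libraries, 8.49 ± 0.636% for the 8 at 0.4 ppm and 7.84 ± 1.51% for the 8 at 0.8 ppm. In air, 5 of 7 libraries lay between 6.60 and 6.89%, and replicates 1 and 6 stood at 9.52 and 8.70%. At 0.4 ppm all 8 libraries lay above those 5, which were set apart after the values were seen, and below air replicate 1. At 0.8 ppm the libraries spread over the widest range, with the lowest and the highest share of the series. The median share was highest at 0.4 ppm, where the germ cell markers had their lowest median and the epithelium, stroma and blood cell markers their highest. At 0.8 ppm the median share was also above that of air. There the germ cell median (45.3 against 43.9% in air) lay above air, and the epithelium median (1.12 against 1.22%) below it. The stroma, leukocyte and erythrocyte medians lay above air, and the highest stroma library (11.3%) was at 0.8 ppm. A relation of the share to these markers was not tested.

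The largest part of that share was tRX-Gly-NNN-90-1. Its share was 5.05 ± 0.874% in air, 5.84 ± 0.467% at 0.4 ppm and 5.24 ± 1.15% at 0.8 ppm. The other 33 rows together held 2.36 ± 0.325% in air, 2.65 ± 0.358% at 0.4 ppm and 2.6 ± 0.427% at 0.8 ppm. The tRX-Glu-NNN sum held 0.644 ± 0.0971% in air, 0.800 ± 0.115% at 0.4 ppm and 0.792 ± 0.240% at 0.8 ppm. In each of these sets the groups overlapped, and shares over the members were given no test.

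**Figure D2:**
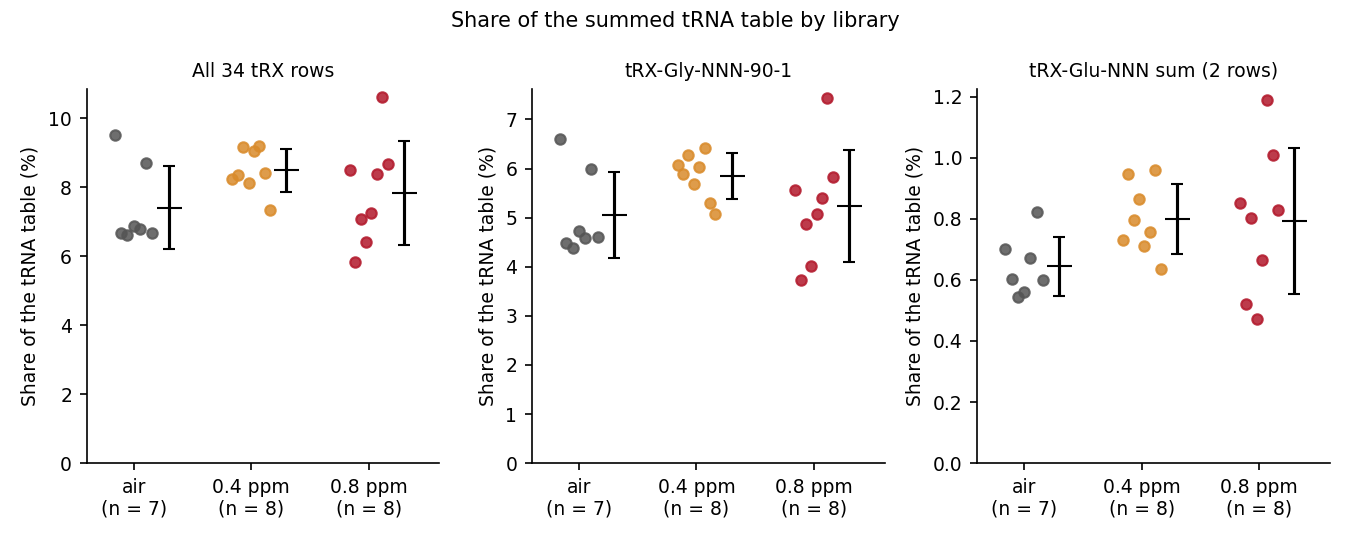
Percent of the summed tRNA table held by all 34 tRX rows, by tRX-Gly-NNN-90-1 and by the 2 tRX-Glu-NNN rows in each library, with axes starting at 0. Each point is 1 rat, and the bar beside each group is its mean with SD (7 air, 8 at 0.4 ppm, 8 at 0.8 ppm). All tRX rows averaged 7.41% in air, 8.49% at 0.4 ppm and 7.84% at 0.8 ppm, with overlapping points.

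At 0.4 ppm against air, no tRX row or sum passed the test. With limma on log2(value + 1) over the whole table, 0 of 34 tRX rows had a Benjamini-Hochberg adjusted p under 0.05, against 0% of all 273 rows (percent called). At an unadjusted p under 0.05 there was 1 tRX row, tRX-Val-NNN-3-1, against 5.86% of all rows. An exact permutation test of each row called 0 of 34 as well, against 0% of all rows, with 1 tRX row at an unadjusted p under 0.05, against 3.66% of all rows. In every pair of groups, a row passing that test alone needs the smallest p the group sizes allow, so its lack of calls says little. Among the 14 sums limma called 0, with 0 at an unadjusted p under 0.05, against 0% and 3.64% of the 55 sums of the table. The log2 fold change was positive in 18 of 34 tRX rows with a median of 0.05. Over all 273 rows it was positive in 131, with a median of -0.01. The 194 canonical rows of the same 13 amino acids had 0 calls, and 1 higher and 10 lower at an unadjusted p under 0.05.

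At 0.8 ppm against air, no tRX row or sum passed either. limma called 0 of 34 rows, against 0% of the table, with 1 row (again tRX-Val-NNN-3-1) at an unadjusted p under 0.05, against 1.83% of all rows. The exact permutation test called 0 of 34, against 0% of all rows, with 2 tRX rows at an unadjusted p under 0.05, against 6.59% of all rows. Of the 14 sums 0 were called, with 0 at an unadjusted p under 0.05, against 0% of the 55 sums on both counts. The median log2 fold change of the tRX rows was -0.13 and that of all rows -0.02. In the deposited scaling 13 of 34 tRX rows were positive, against 130 of all 273 rows. Once values were taken as shares of the tRNA table, 26 of 34 were positive, against 231 of all 273 rows. That scaling moved the median of all rows by 0.30. The canonical rows of the same amino acids had 0 calls, and 3 higher and 1 lower at an unadjusted p under 0.05.

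Between the ozone groups, 0.8 ppm against 0.4 ppm, limma again called 0 of 34 tRX rows, against 0% of the table. At an unadjusted p under 0.05 there were 3 tRX rows, against 2.2% of all rows, and the exact permutation test called 0, against 0% of all rows, with 2 tRX rows at that level, against 1.1% of all rows. Of the 14 sums 0 were called, and 1 (tRX-Gly-NNN) had an unadjusted p under 0.05, against 1.82% of the 55 sums. Over a linear trend with ppm limma called 0 rows, with 1 at an unadjusted p under 0.05 against 1.83% of all rows, and 0 sums, with 0 at an unadjusted p under 0.05. At 0.8 ppm against 0.4 ppm, 13 of 34 tRX rows were positive in the deposited scaling and 24 of 34 as shares of the tRNA table, which moved the median of all rows by 0.28. As shares, 1 tRX row had an unadjusted p under 0.05 by limma, against 18 of all 273 rows. All these contrasts share libraries, so their counts are not separate evidence. No tRX row had 2 groups without overlap in any pair of groups, and neither had any other row of the table (0 of 273).

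Glycine was the largest amino acid group. The tRX-Gly-NNN sum was lowest 16824, median 19862 and highest 27357 in air, 14596, 23308 and 32543 at 0.4 ppm, and 9947, 16454 and 37688 at 0.8 ppm. The ozone groups spread to both sides of the air libraries. The log2 fold change was 0.20 ± 0.23 (SE) at 0.4 ppm against air, with a limma adjusted p = 0.669. At 0.8 ppm against air it was -0.27 ± 0.23 (limma adjusted p = 0.895), with the sign turned to 0.03 when values were taken as a share of the tRNA table. At 0.8 ppm against 0.4 ppm it was -0.47 ± 0.22 (unadjusted p = 0.0397, limma adjusted p = 0.716). As a share of the tRNA table that value shrank to -0.19 ± 0.14 (limma adjusted p = 0.451).

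Within glycine, tRX-Gly-NNN-90-1 ran 15015, 17845 and 25446 in air (lowest, median, highest), 13172, 21287 and 30051 at 0.4 ppm, and 8897, 14928 and 34118 at 0.8 ppm. Its log2 fold change was 0.20 ± 0.24 at 0.4 ppm and -0.26 ± 0.24 at 0.8 ppm against air (limma adjusted p = 0.805 and 0.935), the second turning to 0.04 as a share of the tRNA table. tRX-Gly-NNN-135-1 ran 1593, 1835 and 2133 in air, 1368, 2220.3 and 3211 at 0.4 ppm, and 978, 1313 and 3483 at 0.8 ppm. At 0.8 ppm, 7 of 8 libraries lay at or below 1832 and replicate 7 stood alone at 3483, above every library of the other groups. Its log2 fold change at 0.8 ppm against 0.4 ppm was -0.58 ± 0.23 (unadjusted p = 0.0146, limma adjusted p = 0.751).

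The other 4 glycine rows were low. tRX-Gly-NNN-450-1 ran 22.9, 26.9 and 47.0 in air, 21.9, 34.4 and 85.8 at 0.4 ppm, and 10.8, 35.3 and 66.1 at 0.8 ppm. tRX-Gly-NNN-14-1, tRX-Gly-NNN-136-1 and tRX-Gly-NNN-136-2 averaged 8.81, 4.44 and 5.15 over the 23 libraries. The last of them had 1 of the 3 largest changes at 0.8 ppm, with 1.87, 3.85 and 13.8 in air, 1.45, 6.38 and 9.75 at 0.4 ppm, and 0.677, 3.82 and 6.01 at 0.8 ppm. Its log2 fold change at 0.8 ppm was -0.52 ± 0.37 (limma adjusted p = 0.935). A median of 4 reads per library lay behind that row. tRX-Gly-NNN-136-1 was among the smallest changes at both doses, with 0.937, 4.96 and 9.68 in air, 0.858, 4.15 and 9.75 at 0.4 ppm, and 2.58, 3.78 and 7.52 at 0.8 ppm.

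Glutamate came second. The tRX-Glu-NNN sum was lowest 2025, median 2187 and highest 3503 in air, 2096, 2859 and 4246 at 0.4 ppm, and 1042, 2439.9 and 4624 at 0.8 ppm. Nearly all of it was tRX-Glu-NNN-3-1, which ran 2013, 2175 and 3485 in air, 2055, 2834 and 4234 at 0.4 ppm, and 1023, 2418 and 4588 at 0.8 ppm. The other glutamate row, tRX-Glu-NNN-8-1, averaged 18.5. The log2 fold change of the sum was 0.29 ± 0.23 at 0.4 ppm (limma adjusted p = 0.648) and -0.05 ± 0.23 at 0.8 ppm (0.922), the second turning to 0.25 as a share of the tRNA table.

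Alanine held 2 rows, with means of 731 and 491. The tRX-Ala-NNN sum was 855, 1067 and 1626 in air, 923, 1268 and 2271 at 0.4 ppm, and 515, 1082 and 1978 at 0.8 ppm. For this sum the log2 fold change was 0.32 ± 0.23 at 0.4 ppm (limma adjusted p = 0.648) and -0.13 ± 0.23 at 0.8 ppm (0.895), the second turning to 0.18 as a share of the tRNA table. tRX-Ala-NNN-91-1 ran 480.3, 583 and 773 in air, 452, 736 and 1631 at 0.4 ppm, and 290.0, 674 and 1021 at 0.8 ppm. tRX-Ala-NNN-16005-1 ran 374, 483 and 853 in air, 338, 509 and 774 at 0.4 ppm, and 225, 363 and 958 at 0.8 ppm. For both rows the air median lay inside the range of each ozone group.

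Serine, leucine and isoleucine were the other groups with means above 500. tRX-Ser-NNN-2-1, the only serine row, ran 644, 733 and 1397 in air, 418, 634 and 1803 at 0.4 ppm, and 433, 559 and 1711 at 0.8 ppm, where 7 of 8 libraries lay below the lowest air library and replicate 7 lay above the highest. Its log2 fold change was -0.25 ± 0.27 at 0.4 ppm and -0.44 ± 0.27 at 0.8 ppm (limma adjusted p = 0.790 and 0.935). The tRX-Leu-NNN sum was 673, 921 and 1207 in air, 618, 749.7 and 1158 at 0.4 ppm, and 632, 761 and 941 at 0.8 ppm, with log2 fold changes of -0.22 ± 0.17 and -0.23 ± 0.17 (limma adjusted p = 0.648 and 0.895). The tRX-Ile-NNN sum was 667, 788 and 1193 in air, 448, 745 and 1264 at 0.4 ppm, and 644, 780.1 and 971 at 0.8 ppm, with log2 fold changes of -0.26 ± 0.18 and -0.17 ± 0.18 (limma adjusted p = 0.648 and 0.895). For all 3 groups the libraries of the ozone and air rats overlapped. As shares of the tRNA table, the values at 0.8 ppm were -0.14 for serine, and turned to 0.07 for leucine and 0.13 for isoleucine.

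Of the leucine rows, tRX-Leu-NNN-500-1, tRX-Leu-NNN-499-1 and tRX-Leu-NNN-157-1 had spreads between rats of 0.27, 0.30 and 0.35 (SD within groups, log2 scale), against a median of 0.53 over the tRX rows, and tRX-Leu-NNN-403-1 had 0.54. A low spread was not particular to leucine, since tRX-Lys-NNN-39-1 and tRX-Ile-NNN-9-1 had 0.33 and 0.34. The remaining tRX rows with means of at least 100 had 0.44 (tRX-Gly-NNN-90-1) to 0.60 (tRX-Ser-NNN-2-1). tRX-Leu-NNN-157-1 ran 381, 499.6 and 682 in air, 289, 410.4 and 699 at 0.4 ppm, and 321, 394 and 565 at 0.8 ppm, a log2 fold change of -0.36 ± 0.20 at 0.8 ppm (limma adjusted p = 0.935). tRX-Leu-NNN-500-1 ran 127, 185 and 228 in air, 108, 139 and 205 at 0.4 ppm, and 133, 149 and 206 at 0.8 ppm, a log2 fold change of -0.33 ± 0.18 at 0.4 ppm (limma adjusted p = 0.779). tRX-Leu-NNN-499-1 and tRX-Leu-NNN-403-1 averaged 159.7 and 62.6. These rows overlapped between every pair of groups. The main isoleucine row, tRX-Ile-NNN-9-1, ran 657, 776 and 1178 in air, 439.7, 726 and 1245 at 0.4 ppm, and 639, 759.9 and 955 at 0.8 ppm, and tRX-Ile-NNN-4-1 averaged 16.1.

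A valine row, tRX-Val-NNN-3-1, had the largest log2 fold change against air of any tRX row at both doses, at low values. It was lowest 0.937, median 2.89 and highest 9.11 in air, 2.24, 8.17 and 16.2 at 0.4 ppm, and 2.71, 7.74 and 11.8 at 0.8 ppm. At 0.4 ppm 7 of 8 libraries lay at or above 6.0 and replicate 2 stood at 2.24, while in air 6 of 7 lay at or below 5.67 and replicate 7 stood at 9.11. The log2 fold change was 0.97 ± 0.34 at 0.4 ppm (95% interval 0.28 to 1.66, unadjusted p = 0.00686, limma adjusted p = 0.627). At 0.8 ppm it was 0.85 ± 0.34 (interval 0.16 to 1.54, unadjusted p = 0.0166, limma adjusted p = 0.935). The row rested on 1 to 19 reads per library with a median of 6, so 1 read is a large step on this scale. When limma weighted each library by its quality, the row passed at 0.8 ppm with a log2 fold change of 1.05 and an adjusted p of 0.0394, together with 21 other rows of the table.

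tRX-Val-NNN-204-1 ran 38.4, 58.7 and 126 in air, 45.5, 66.8 and 198 at 0.4 ppm, and 24.4, 92.6 and 119 at 0.8 ppm. The row's log2 fold change was 0.51 ± 0.33 at 0.4 ppm (limma adjusted p = 0.779) and 0.25 ± 0.33 at 0.8 ppm (0.935). tRX-Val-NNN-27-1 ran 9.21, 12.2 and 21.4 in air, 6.25, 17.0 and 33.2 at 0.4 ppm, and 4.14, 10.2 and 19.5 at 0.8 ppm, with a log2 fold change of -0.65 ± 0.30 at 0.8 ppm against 0.4 ppm (unadjusted p = 0.0353, limma adjusted p = 0.751). By their medians the 3 valine rows had different orders of the 3 groups, and the groups overlapped in each. The tRX-Val-NNN sum was 51.6, 73.1 and 139.7 in air, 69.5, 97.9 and 247 at 0.4 ppm, and 37.9, 114 and 149 at 0.8 ppm, with log2 fold changes of 0.52 ± 0.29 at 0.4 ppm (limma adjusted p = 0.648) and 0.19 ± 0.29 at 0.8 ppm (0.895), the second being 0.50 as a share of the tRNA table.

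**Figure D3:**
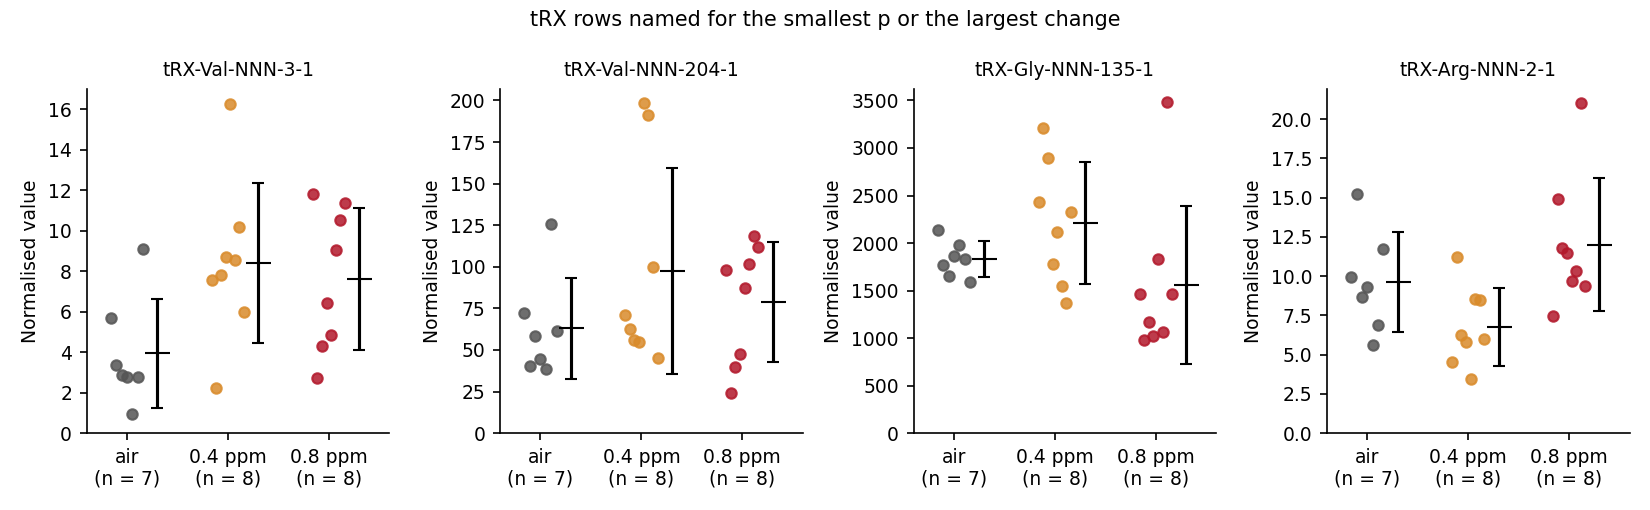
Normalised value in each library of the 4 tRX rows tRX-Val-NNN-3-1, tRX-Val-NNN-204-1, tRX-Gly-NNN-135-1 and tRX-Arg-NNN-2-1, with axes starting at 0. Points are rats, 7 in air and 8 at each ozone dose, and bars are the mean with SD. All 4 rows overlap between groups, and 0.8 ppm replicate 7 lies alone at 3483 in the third panel and at 21.0 in the fourth.

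Arginine rows were low. tRX-Arg-NNN-2-1 ran 5.62, 9.29 and 15.2 in air, 3.48, 6.13 and 11.2 at 0.4 ppm, and 7.45, 10.9 and 21.0 at 0.8 ppm. Its log2 fold change at 0.8 ppm against 0.4 ppm was 0.75 ± 0.26, the smallest unadjusted p of any tRX row in any contrast (0.00609), with a limma adjusted p = 0.751 and a median of 10 reads per library. tRX-Arg-NNN-1-1 averaged 36.5 and tRX-Arg-NNN-227-1 averaged 9.64. The tRX-Arg-NNN sum was 47.8, 54.5 and 69.6 in air, 37.7, 52.6 and 89.7 at 0.4 ppm, and 37.3, 55.8 and 69.1 at 0.8 ppm, with log2 fold changes against air of -0.11 ± 0.18 and -0.08 ± 0.18, the second turning to 0.22 as a share of the tRNA table. The medians of the 3 groups lay between 52.6 and 55.8.

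Lysine, aspartate and methionine sums lay between 48.9 and 386 in every library. The tRX-Lys-NNN sum was 231, 249.8 and 319 in air, 192, 297 and 386 at 0.4 ppm, and 143, 265 and 332 at 0.8 ppm, led by tRX-Lys-NNN-39-1 with 169, 202 and 247 in air, 136, 233 and 267 at 0.4 ppm, and 99.2, 197 and 252 at 0.8 ppm. The other lysine rows, tRX-Lys-NNN-20-1 and tRX-Lys-NNN-29-1, had medians of 46.9 and 15.4 over the 23 libraries, and all lysine groups overlapped. The tRX-Asp-NNN sum was 76.0, 96.6 and 108 in air, 48.9, 75.1 and 101 at 0.4 ppm, and 53.5, 76.0 and 150.3 at 0.8 ppm. The aspartate groups overlapped, and its row tRX-Asp-NNN-67-1, with 33.4, 41.2 and 91.3 in air, 17.2, 32.3 and 76.6 at 0.4 ppm, and 13.5, 27.4 and 119 at 0.8 ppm, had a log2 fold change at 0.8 ppm of -0.44 ± 0.33 (limma adjusted p = 0.935). The tRX-Met-NNN sum was 71.2, 82.6 and 169 in air, 54.3, 77.8 and 114 at 0.4 ppm, and 55.7, 83.2 and 149 at 0.8 ppm. Its row tRX-Met-NNN-1-1 was among the 3 smallest changes at 0.8 ppm, with 39.0, 44.3 and 80.04 in air, 25.7, 46.0 and 67.2 at 0.4 ppm, and 31.5, 45.8 and 78.8 at 0.8 ppm. tRX-Met-NNN-6-1 averaged 40.7 and tRX-Asp-NNN-2-1 averaged 44.1. The log2 fold changes of these 3 sums against air were 0.15, -0.28 and -0.24 at 0.4 ppm, and -0.08, -0.19 and -0.05 at 0.8 ppm, none past the limma threshold. All 3 turned at 0.8 ppm as shares of the tRNA table, to 0.22, 0.10 and 0.25.

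The undetermined rows, glutamine and histidine were the lowest groups. The tRX-Und-NNN sum was 14.9, 22.7 and 30.4 in air, 14.6, 24.2 and 71.9 at 0.4 ppm, and 15.6, 19.2 and 26.6 at 0.8 ppm. Its row tRX-Und-NNN-362-1 ran 6.5, 11.2 and 19.4 in air, 8.97, 15.8 and 54.5 at 0.4 ppm, and 7.35, 11.8 and 21.8 at 0.8 ppm, a log2 fold change of 0.56 ± 0.31 at 0.4 ppm (limma adjusted p = 0.779), or 0.33 without 0.4 ppm replicate 5. The other, tRX-Und-NNN-734-1, was among the smallest changes there with 6.56, 9.11 and 15.4 in air, 5.6, 9.34 and 17.4 at 0.4 ppm, and 4.52, 8.43 and 10.7 at 0.8 ppm. The groups overlapped for both. tRX-Gln-NNN-2-1 ran 8.44, 13.9 and 26.9 in air, 4.69, 12.1 and 16.4 at 0.4 ppm, and 2.42, 12.4 and 23.0 at 0.8 ppm. tRX-His-NNN-1-1 ran 7.80, 12.7 and 20.7 in air, 6.72, 13.8 and 17.5 at 0.4 ppm, and 8.27, 11.8 and 24.1 at 0.8 ppm. They had medians of 14 and 13 reads per library, and their medians differed by less than the SD within a group.

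**Figure D4:**
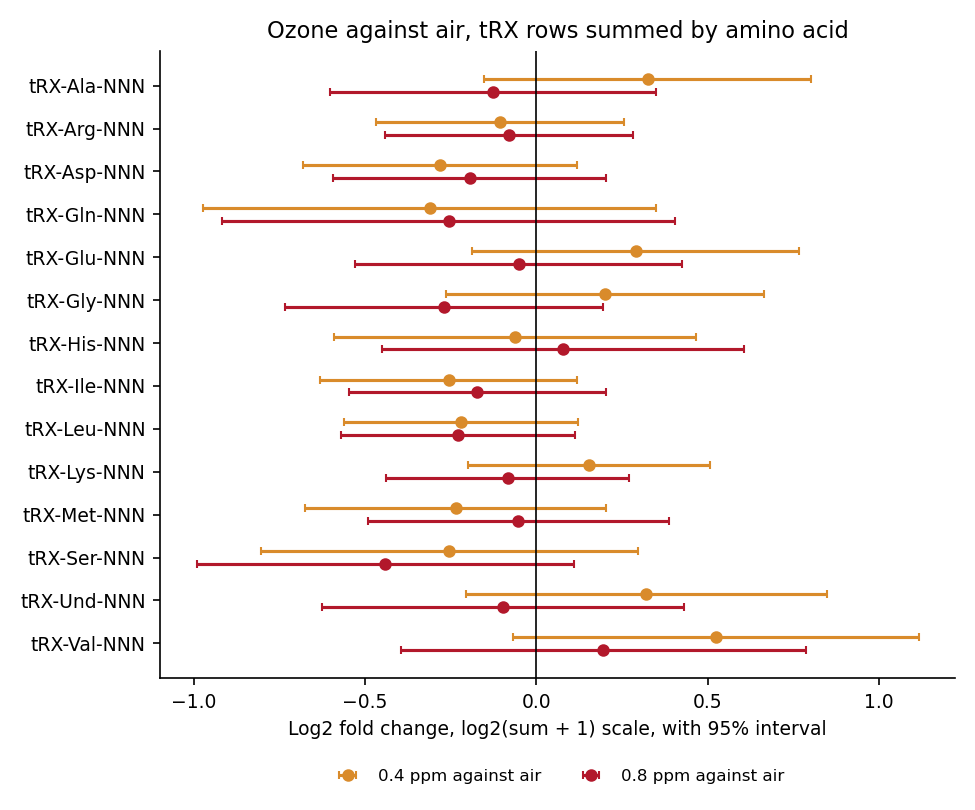
Log2 fold change of each of the 14 tRX amino acid sums at 0.4 ppm and at 0.8 ppm against air, on the log2(sum + 1) scale, with 95% intervals from limma. Every interval crosses 0 at both doses, and in the deposited scaling 6 of 14 sums are above 0 at 0.4 ppm and 2 of 14 at 0.8 ppm, against 13 of 14 at 0.8 ppm when values are taken as a share of the tRNA table. Of all 55 sums, 25 are above 0 at 0.4 ppm and 21 at 0.8 ppm in the deposited scaling.

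Across the amino acid sums, 6 of 14 were above 0 at 0.4 ppm against air, under the deposited scaling, as a share of the tRNA table, scaled by the canonical rows and under quantile normalization. Of all 55 sums, 25 were above 0 there in the deposited scaling. At 0.8 ppm 2 of 14 were above 0 in the deposited scaling, 13 of 14 as shares of the tRNA table or scaled by the canonical rows, and 5 of 14 under quantile normalization. The summed tRNA table was 221314 to 265325 in 0.8 ppm replicates 1, 2, 4, 6 and 8, below the lowest air library (292938). It was 346006 to 458885 in 0.8 ppm replicates 3, 5 and 7. The direction of 11 of the 14 tRX sums at 0.8 ppm turned with the scaling to shares of the tRNA table, and in none of these scalings was a sum called. In the deposited scaling the 95% intervals of these sums against air reached down to -0.99 (serine, 0.8 ppm) and up to 1.11 (valine, 0.4 ppm), and changes inside a sum's interval could not be told from 0 with these groups.

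Several of the abundant tRX rows followed 1 canonical row almost exactly from rat to rat. Canonical rows of like level followed another canonical row about as closely, as given below. Likeness was the Pearson r of log2(value + 1) over the 23 libraries after each group's mean was removed; both rows of a pair carry the scaling of the same library, so r is given as a description. tRX-Glu-NNN-3-1 and tRNA-Glu-CTC-1-3, a glutamate tRNA gene, had r = 0.997, and their ratio had a median of 0.996 and stayed within 0.936 to 1.03 in all libraries. tRX-Gly-NNN-90-1 and tRNA-Gly-GCC-1-2 had r = 0.985 with a ratio of 4.62 (4.02 to 5.08), so the tRX row carried several times the value of the canonical row it followed. The second closest rows were tRNA-Glu-CTC-1-1 (r = 0.997) and tRNA-Gly-GCC-1-4 (r = 0.984). Such pairs may share reads, and their levels are uncertain to that extent.

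The assigned amino acid of a tRX row did not always match the canonical row it followed. tRX-Ala-NNN-91-1 was closest to a valine tRNA, tRNA-Val-CAC-4-1, with r = 0.986 and a ratio of 1.01 (0.906 to 1.15). tRX-Ala-NNN-16005-1 was closest to a glycine tRNA, tRNA-Gly-GCC-1-7, with r = 0.987 and a ratio of 0.119 (0.10 to 0.135). The table holds 1 canonical alanine row, against 14 for valine and 25 for glycine, so a single alanine partner could be followed. A low glycine row and a low aspartate row did likewise, tRX-Gly-NNN-450-1 with tRNA-Val-AAC-1-2 (r = 0.964) and tRX-Asp-NNN-67-1 with tRNA-Gly-CCC-2-1 (r = 0.913, ratio 0.167). Without the 2 libraries farthest from the median of the canonical row, r was 0.955 and 0.849. Spearman rho over all libraries was 0.966 and 0.771.

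Other abundant rows matched within their amino acid. tRX-Ser-NNN-2-1 followed tRNA-Ser-TGA-4-1 (r = 0.986, ratio 0.223), with tRNA-Ser-AGA-5-1 next at r = 0.985. tRX-Leu-NNN-157-1 followed tRNA-Leu-CAA-2-1 (r = 0.958, ratio 0.403) and tRX-Ile-NNN-9-1 followed tRNA-Ile-AAT-3-1 (r = 0.947, ratio 4.98). Less close were tRX-Leu-NNN-500-1 with tRNA-Leu-AAG-3-1 (r = 0.822), tRX-Gly-NNN-135-1 with tRNA-Gly-GCC-1-7 (r = 0.813) and tRX-Lys-NNN-39-1 with tRNA-Lys-TTT-1-2 (r = 0.714). Without the 2 libraries farthest from the median of the canonical row, r was 0.772, 0.665 and 0.673. The lowest r within a group was 0.595, 0.10 and 0.588 in the same order. Of these looser pairs, tRX-Gly-NNN-135-1 had 757 to 3011 reads per library and tRX-Lys-NNN-39-1 had 41 to 472.

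**Figure D5:**
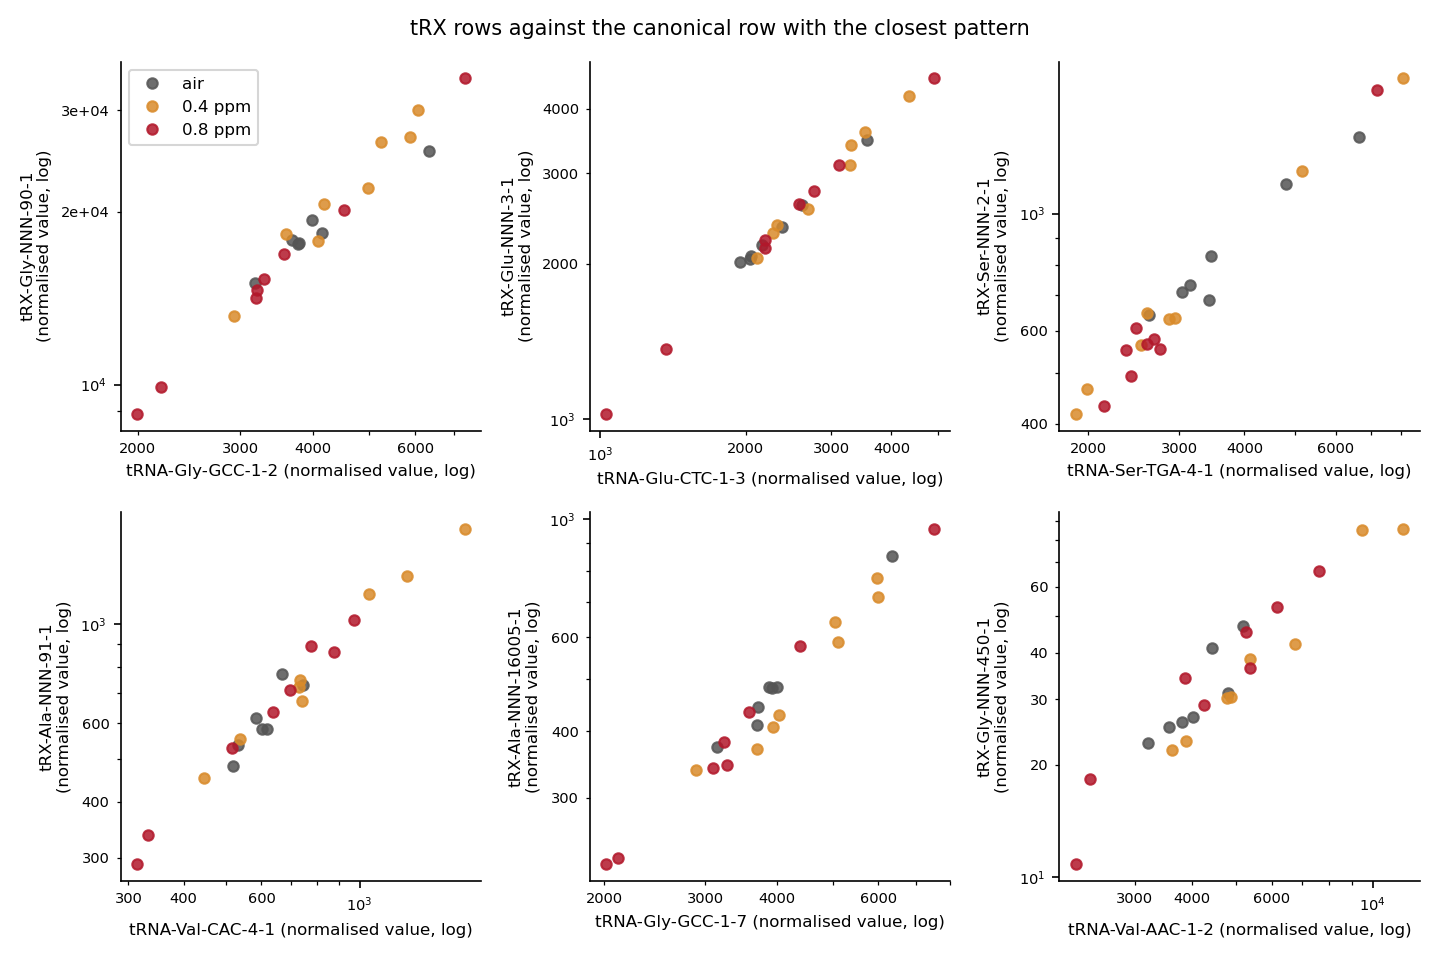
Normalised value of 6 tRX rows against that of the canonical row with the closest pattern, on log axes, with 1 point per library coloured by group. Points lie close to a line in each panel (r = 0.964 to 0.997 after group means were removed), with both rows of a pair carrying the same library scaling. The lower left panel pairs an alanine tRX row with a valine tRNA and the lower middle panel an alanine tRX row with a glycine tRNA.

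A match of amino acid was possible for 32 of the 34 tRX rows, since the 2 undetermined rows have none, and for the 236 canonical rows whose amino acid at least 1 other canonical row carries. The closest canonical row had the same assigned amino acid for 19 of the 32 tRX rows (59.4%), against 174 of the 236 canonical rows (73.7%). Among rows with a mean of at least 100 it was 9 of 11 tRX rows (81.8%) and 109 of 116 canonical rows (94.0%), and under 100 it was 10 of 21 (47.6%) and 65 of 120 (54.2%). The tRX and canonical shares were not tested against each other. The closest r was at or above 0.95 for 7 tRX rows and under 0.7 for 8, down to 0.46 for tRX-Arg-NNN-1-1. Its median among rows with a mean of at least 100 was 0.958 for tRX rows and 0.961 for canonical rows. Under 100 it was 0.757 and 0.783, so close following was not particular to the tRX rows. The tRX rows also followed one another across amino acids, with r = 0.958 for tRX-Ala-NNN-16005-1 and tRX-Gly-NNN-90-1, and 0.930 for tRX-Gly-NNN-450-1 and tRX-Val-NNN-204-1.

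Summed by amino acid, the tRX and canonical rows of the 13 amino acids were compared over the 23 libraries after each group's mean was removed, by permutation of the libraries (100000 orders, two-sided, Benjamini-Hochberg adjusted over the 13). The relation was closest for serine (Pearson r = 0.987, Spearman rho = 0.891), methionine (0.922 and 0.880), glycine (0.916 and 0.846) and valine (0.815 and 0.783), each with an unadjusted permutation p of 1e-05 for r, the smallest these orders can give, and an adjusted permutation p of 3.25e-05. Without the 2 libraries farthest from the median of the canonical sum, r was 0.970, 0.873, 0.894 and 0.782. Glutamate had r = 0.689 and rho = 0.733 (permutation p = 0.00025, adjusted 0.00065), and 0.685 without those 2 libraries. Within the groups, the glycine r was 0.658 in air, 0.953 at 0.4 ppm and 0.952 at 0.8 ppm, and the glutamate r was 0.386, 0.923 and 0.722.

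Lysine (r = 0.605, rho = 0.546), isoleucine (0.582 and 0.504) and histidine (0.455 and 0.453) also passed, with adjusted permutation p for r of 0.00453, 0.00693 and 0.0461, and r of 0.426, 0.387 and 0.524 without the 2 farthest libraries. In all, 8 of 13 amino acids passed for r and 10 for rho, where the p sets r against 0 and does not account for what the sums of a library share. Leucine (r = 0.425, adjusted permutation p = 0.0611) and glutamine (0.411, 0.0678) passed for rho only, at 0.483 and 0.532 (adjusted 0.0306 and 0.0178). Alanine (r = 0.306, rho = 0.314, adjusted permutation p = 0.183 for r), arginine (-0.05 and -0.09, 0.892) and aspartate (-0.01 and 0.11, 0.948) did not pass. The alanine r was 0.935 in air, 0.153 at 0.4 ppm and 0.337 at 0.8 ppm, and the difference between groups was not tested. Both sums of a library share its scaling factor and may share reads. Set against the canonical sums of the other 12 amino acids, chosen after the values above were seen, the tRX sums had a median r between -0.28 (methionine) and 0.20 (aspartate), given as a description. Of the 13 tRX sums, 5 (glycine, lysine, methionine, serine and valine) were closest to the canonical sum of their own amino acid, and 8 were closer to another. Among these 8 were the tRX alanine sum with canonical valine (r = 0.892), glutamate with glycine (0.829) and isoleucine with serine (0.836).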

How the data were processed

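Small RNA of 23 rat sperm libraries was analysed from 1 deposited tRNA table of 273 rows, with a miRNA table used for marker miRNAs only. The authors deposited a scaled read signal in both, labelled as normalised counts. Bowtie 1.0.0, Partek and rn6 are named, without role or order, per the submitters' processing notes. The rule that assigned reads to tRNA genes was not stated in the sources read here. Only values under 40 were used to test the read step (81 to 105 per library, all within 0.1 of a whole multiple). The step was used to describe depth and no count test was run. Read numbers cover counting error only.

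All rows were above 0 in at least 8 libraries and entered limma 3.58.1 (R 4.3.3) on log2(value + 1), with trend and robust moderation, all 3 groups in 1 model, and Benjamini-Hochberg adjustment over all rows, or over all 55 sums, within a contrast (two-sided, 0.05). Fold changes on this scale understate changes of low rows. Sums took canonical rows by isotype and anticodon and tRX rows by amino acid. Values in full were given for the sums, the 10 most abundant tRX rows, the 3 smallest p per contrast, and the 3 largest and 3 smallest changes at each dose. Rats were separate animals, and the replicate numbers used here follow accession order. Correlations used Python 3.11.15 with scipy 1.17.1. The fits were checked on simulated data. The alternatives were other pseudocounts, filters, scalings, moderation and tests, library weights, the table total as covariate, and leaving out each rat. Members and lists were chosen with earlier results of these data known. No sequence was printed, since the tables used here held none under the tRX names.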

Additional observations from a re-analysis of the deposited data

Results flagged for a closer look

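Within each group of 7 or 8 rats, the highest and lowest library of each tRX row and sum were compared with the rest of the group by Dixon's gap ratio at its 95% level. This marked 23 of 138 sets of values, where chance marks about 1 in 20, or 6.9. In every case the highest library stood apart. The ratio was taken on the deposited values and not on the log2 scale, and the rate of 1 in 20 holds for normally distributed values. Values skewed to the high side give more marks of this kind, so the number above 6.9 does not by itself show an odd library. Rows and sums are not independent, since a sum holds its rows and rows move together. Of the 23, 8 were in air replicate 6, 7 in 0.8 ppm replicate 7, 2 each in air replicate 1, 0.4 ppm replicate 4 and 0.8 ppm replicate 5, and 1 each in 0.4 ppm replicate 5 and 0.8 ppm replicate 8.

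In 0.8 ppm replicate 7 the values that stood apart were 34118 for tRX-Gly-NNN-90-1, 3483 for tRX-Gly-NNN-135-1, 7.52 for tRX-Gly-NNN-136-1, 37688 for the tRX-Gly-NNN sum, 119 for tRX-Asp-NNN-67-1, 565 for tRX-Leu-NNN-157-1 and 1711 for tRX-Ser-NNN-2-1. In 0.8 ppm replicate 5, the library with the fewest tRNA reads (164342), they were 16.9 for tRX-Arg-NNN-227-1 and 220.2 for tRX-Leu-NNN-499-1. In 0.8 ppm replicate 8 it was 45.5 for tRX-Lys-NNN-29-1.

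In 0.4 ppm replicate 4 they were 79.5 for tRX-Arg-NNN-1-1 and 89.7 for the tRX-Arg-NNN sum, and in 0.4 ppm replicate 5 it was 132 for tRX-Lys-NNN-20-1. In air replicate 6 they were 25446 for tRX-Gly-NNN-90-1, 853 for tRX-Ala-NNN-16005-1, 20.7 for tRX-Arg-NNN-227-1, 91.3 for tRX-Asp-NNN-67-1, 3485 for tRX-Glu-NNN-3-1, 3503 for the tRX-Glu-NNN sum, 108 for tRX-Leu-NNN-403-1 and 126 for tRX-Val-NNN-204-1. In air replicate 1 they were 80.04 for tRX-Met-NNN-1-1 and 169 for the tRX-Met-NNN sum.

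The summed tRNA table was 458885 in 0.8 ppm replicate 7, against 221314 to 397686 in the other 0.8 ppm libraries, and 425304 in air replicate 6, against 292938 to 401085 in the other air libraries. The part of the table total in these values was not tested.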

How the results depend on the processing

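No tRX row was called under the pseudocounts, filters, scalings, moderation, covariate, single-pair fits or exact permutation test tried, and none when any 1 rat was left out (0 calls in every leave-one-out fit, rows and sums). Library weights alone called 1 tRX row, tRX-Val-NNN-3-1, at 0.8 ppm against air (log2 1.05, adjusted p = 0.0394, with 22 of 273 rows called against 0 without weights) and 1 over the linear trend (1.35 per ppm, adjusted p = 0.0485, with 9 rows called); over the other settings the smallest adjusted p of any tRX row at 0.8 ppm against air was 0.531, and 0.497 with a rat left out. The cause was not tested. At 0.8 ppm against air the sign turned, with no call, for tRX-Gly-NNN-90-1 (0.040 as a share of the tRNA table, 0.047 scaled by canonical rows, 0.11 with the table total as covariate), for the sums tRX-Gly-NNN (0.032, 0.039 and 0.097), tRX-Glu-NNN (0.25, 0.26 and 0.30, and 0.012 under quantile normalization) and tRX-Ala-NNN (0.18, 0.18 and 0.15). Without 1 rat the tRX-Glu-NNN value ran from -0.20 to 0.11 and that of tRX-Ala-NNN from -0.27 to 0.012; it was positive without air replicate 6, 0.8 ppm replicate 2 or 0.8 ppm replicate 4 for glutamate, and without 0.8 ppm replicate 4 for alanine. Leaving out 1 rat moved 15 of the 30 named fold changes by over 1.5 times, none of them called. At 0.4 ppm against air, these included tRX-Und-NNN-362-1 and tRX-Val-NNN-204-1 without 0.4 ppm replicate 5 (0.33 and 0.34). At 0.8 ppm against air, tRX-Asp-NNN-67-1 ran from -0.71 without 0.8 ppm replicate 7 to -0.27 without 0.8 ppm replicate 2, and tRX-Gly-NNN-136-2 was -0.30 without air replicate 6. Also at 0.8 ppm against air, tRX-Gly-NNN-90-1 ran from -0.43 without 0.8 ppm replicate 7 to -0.15 without 0.8 ppm replicate 4, and the tRX-Val-NNN sum from 0.089 without 0.8 ppm replicate 7 to 0.37 without 0.8 ppm replicate 2. Depth limits the 14 rows with a median under 20 reads per library. edgeR on recovered reads was planned and not run, because the read step was tested only on the low values of each library. No paired analysis was possible because the labels number the rats singly and pair none across groups.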
